A study of Mus musculus with 16 samples.

Results

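Livers and quadriceps of wild-type mice fasted for 18 h were compared on 8 Affymetrix Mouse430A_2 arrays, 4 of each tissue, with a signal for every probe set. They were chosen by the genotype and tissue in the sample titles and make up 8 of the 16 arrays of a study of Klf15, a Kruppel-like DNA-binding factor. The other 8 arrays, from mice without Klf15, were left out here. Every mouse was female, 4 to 5 months old and without food for 18 h, so no value below shows what fasting changed. The labels give no strain and do not say that the numbers 1 to 4 mark separate animals, so the spread behind the p-values is that between samples and may be technical. In a fast the liver makes glucose from lactate, glycerol and amino acids, oxidizes fatty acids, exports ketone bodies and disposes of nitrogen as urea. Skeletal muscle then takes up little glucose, burns fatty acids and ketone bodies and releases amino acids from its protein. Many steps that both tissues carry out are encoded by a pair of genes, 1 of them used mainly in liver and the other mainly in muscle.

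A gene's signal was taken from its brightest probe set with a single symbol, on a scale on which the 8 arrays were quantile normalized together. Differences are of log2(signal + 16), liver minus quadriceps, so that a positive value means higher in liver, and are given with the standard error (SE) of the fit over 4 arrays of each tissue. A gene was called when its p-value from limma, adjusted by Benjamini-Hochberg over all 12393 genes, was under 0.05. Signals of different genes come from different probes and are not set against each other. A gene was called dim in a tissue where its mean signal there was under 28.4, the 40th percentile. No detection calls were used, and the added 16 understates the difference of a gene that is dim in 1 tissue.

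Deposited signals had medians of 41.6 to 48.7 in liver and 37.3 to 51.9 in quadriceps. Spearman's rank correlation over probe sets was 0.953 to 0.960 among liver arrays, 0.938 to 0.956 among quadriceps arrays and 0.711 to 0.734 between the tissues, as a description. The liver arrays were hybridized and scanned in 1 session and the quadriceps arrays in another, on other chip lots, so session and tissue cannot be told apart in any value below. The ratio of the 3' to the 5' control probe set of beta-actin was 2.17 to 2.55 in liver and 0.840 to 1.10 in quadriceps, and that of Gapdh was 0.710 to 0.804 in liver and 0.855 to 0.937 in quadriceps. Neither pair of ranges overlapped, and their part in the results was not tested. In bulk tissue, fewer cells of a type and less RNA per cell cannot be told apart.

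Of the 12393 genes, 3074 (24.8%) were higher and 4153 (33.5%) lower in liver, and 5166 did not pass the threshold. At 2-fold or more, 1759 (14.2%) were higher and 2053 (16.6%) lower in liver, and at 16-fold or more the counts were 362 and 212. The balance at 2-fold depends on the scaling: with cyclic loess in place of quantile normalization, 3475 genes were higher and 3651 lower, and 1958 were higher and 1746 lower at 2-fold or more. The signals of the 4 livers and the 4 quadriceps did not overlap for 6759 genes (54.5%), and 3680 genes were dim in both tissues. Of the genes higher in liver by at least 2-fold, 749 were dim in quadriceps, and of those lower by at least 2-fold, 692 were dim in liver. A gene was called even when both means were at or above the 60th percentile, a signal of 82.1, and the 95% confidence interval of its difference lay within 0.5 on either side of 0, which held for 898 genes (7.25%). The median difference of all genes was -0.10.

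The tissue labels were checked against markers of hepatocytes and of skeletal muscle fibres. All 11 measured hepatocyte markers, among them albumin (Alb, 7.60 ± 0.22, SE) and transthyretin (Ttr, 8.11 ± 0.29), the carriers of plasma, were higher in liver, with summed signals of 75600 to 76500 in liver and 381 to 517 in quadriceps. All 12 myofibre markers were dim in liver and lower there, with sums of 108 to 133 in liver and 117000 to 119000 in quadriceps. Of the hepatocyte markers 8 were dim in quadriceps, and no array went against its label.

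The largest difference in favour of liver belonged to Fgb, the fibrinogen beta chain. Fgb had signals of 10142, 9453, 9233 and 10661 on the 4 liver arrays and 0.5997, 0.974, 0.887 and 0.837 on the 4 quadriceps arrays. Its log2 difference was 9.20 ± 0.07 (SE, limma adjusted p = 1.05e-15), and the other chains of the clot protein, Fga (8.63 ± 0.13) and Fgg (8.69 ± 0.11), lay close behind. Each fibrinogen chain is made and secreted by hepatocytes, and all 3 were dim in quadriceps. The next in order were Fabp1, the fatty acid carrier of the hepatocyte cytosol (8.84), Serpina1b, an alpha-1-antitrypsin (8.79), Ces1c, a secreted carboxylesterase (8.74), and Apoa1, the main protein of high-density lipoprotein (8.72). The 15 largest also held Pzp, a protease inhibitor of plasma, Ambp and Itih4 of the inter-alpha inhibitors, Pon1, an esterase carried on lipoproteins, Apoh, plasminogen (Plg), the cytochrome P450 Cyp2c50 and Arg1, the arginase of the urea cycle, with differences from 8.45 to 8.61. Serpina1b, Ces1c and Cyp2c50 belong to families of near-identical genes, and their probe sets may take signal from other members.

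The largest difference in favour of quadriceps belonged to Myh4, the myosin heavy chain of fast glycolytic fibres. Myh4 had signals of 4.12, 2.80, 1.72 and 1.29 in liver and 8998, 9744, 10819 and 9744 in quadriceps. All 4 livers lay far under 28.4, and the log2 difference was -9.06 ± 0.08 (SE, limma adjusted p = 1.56e-15). Actn3, the alpha-actinin of fast fibres (-9.04), Acta1, skeletal muscle actin (-9.00), Ryr1, the calcium release channel (-8.97), and Mb, the oxygen store myoglobin (-8.94), followed. The remaining genes of the 15 largest were the fast myosins Myh2 and Myh1, the myosin light chain Myl1, the fast troponins Tnnc2, Tnnt3 and Tnni2, the Z-disc proteins Myot and Ldb3, the calcium buffer Pvalb and Cmya5, with differences from -8.91 to -8.56. The myosin heavy chain genes are close copies, so signal of 1 may reach the probe sets of another.

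**Figure D1:**
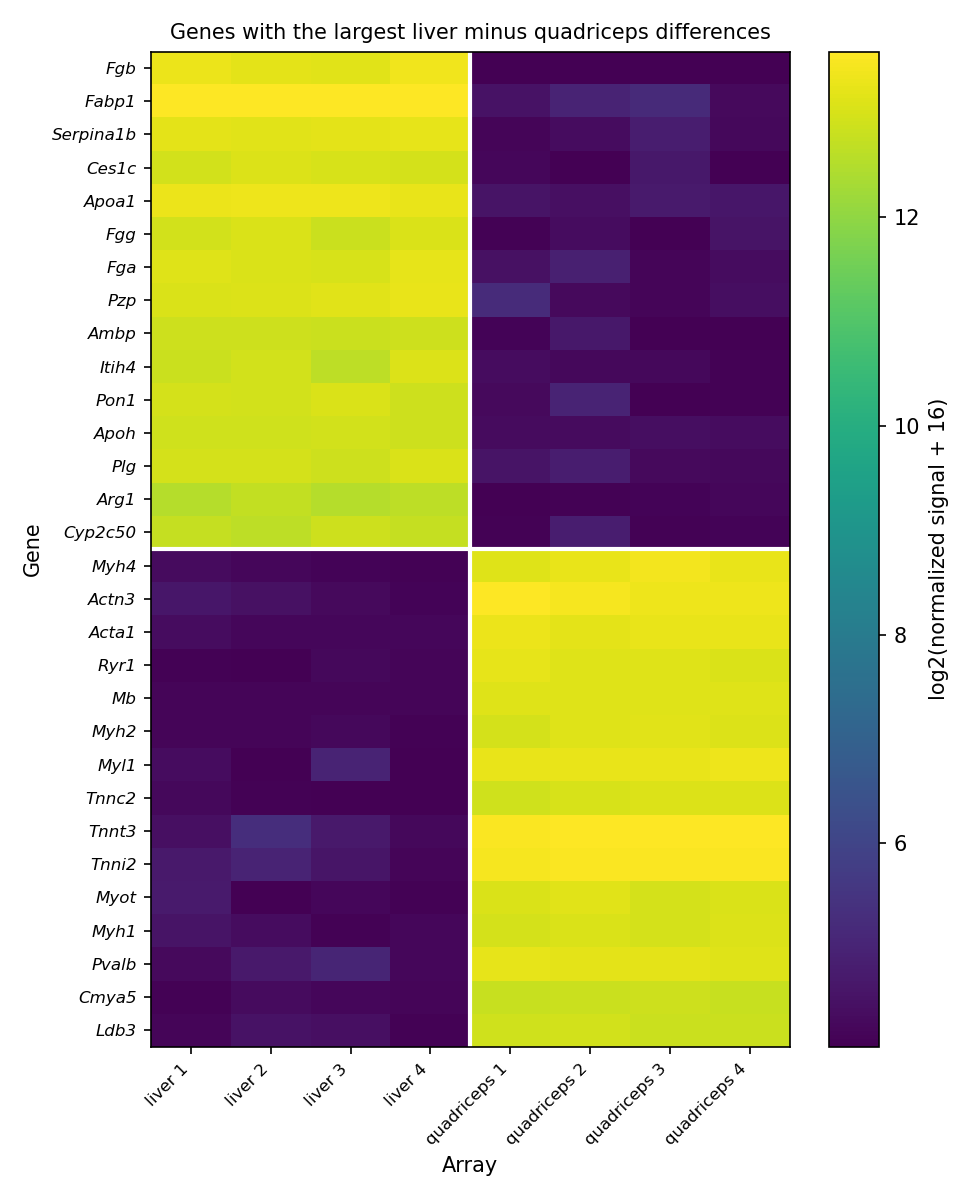
Log2(normalized signal + 16) on each of the 8 arrays (columns, 4 liver arrays left of 4 quadriceps arrays) for the 15 genes with the largest differences in favour of liver (upper rows) and of quadriceps (lower rows); colour gives the level, yellow high and purple low. Within each tissue the 4 arrays are alike, and every gene is near the bottom of the scale in 1 tissue, with differences from 8.45 to 9.20 above and from -9.06 to -8.56 below.

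To show the DNA in front of such genes, RefSeq promoters (250 bases before to 50 after the start of transcription, GRCm38.p6) were searched on both strands for 5 motifs. These were an HNF1 motif (GTTAATNAT, of a hepatic homeodomain factor), the MEF2 box and the CArG box (bound by MEF2 factors and by serum response factor), the E-box CAGCTG of the myogenic factors and the TATA box TATAAA, whose letters a MEF2 box can contain. Of the 50 genes with the largest difference in each direction, 38 had a promoter sequence. CAGCTG stood in 4 of the 38 higher in liver (10.5%) and in 20 of the 38 lower in liver (52.6%), against 18.4% of the 9887 measured genes with a promoter and 16.3% of all 32851 promoters. The CArG box stood in 2 (5.26%) of the higher and 6 (15.8%) of the lower set, against 1.75% of measured genes and 1.63% of all promoters. The HNF1 motif stood in 2 (5.26%) of the higher and 0 of the lower set, against 0.708% and 0.801%, and the MEF2 box in 1 of each set (2.63%), against 0.617% and 0.557%. The TATA box was in 12 (31.6%) of the higher and 10 (26.3%) of the lower set, against 11.9% and 13.6%. A match of letters is a description and not evidence of binding.

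The promoters of Fga and Myh4 are shown because they belong to the genes with the largest difference in each direction whose promoter holds an HNF1 motif or, for quadriceps, a MEF2 or CArG box. That of Fga lies on the plus strand at chr3:83025903-83026202 and that of Myh4 on the plus strand at chr11:67237562-67237861, both in GRCm38.p6. Capitals mark the HNF1 motif of Fga, on the minus strand and starting at -46 from the start of transcription, and in Myh4, in order, TATA box letters at -213 and -179, the CArG box at -104, CAGCTG at -67 and a TATA box at -31.
Fga: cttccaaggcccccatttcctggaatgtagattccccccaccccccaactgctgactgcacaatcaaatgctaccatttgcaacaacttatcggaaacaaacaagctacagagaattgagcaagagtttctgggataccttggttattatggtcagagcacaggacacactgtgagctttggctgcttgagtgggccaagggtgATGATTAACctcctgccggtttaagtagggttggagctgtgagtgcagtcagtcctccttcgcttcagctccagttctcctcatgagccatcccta
Myh4: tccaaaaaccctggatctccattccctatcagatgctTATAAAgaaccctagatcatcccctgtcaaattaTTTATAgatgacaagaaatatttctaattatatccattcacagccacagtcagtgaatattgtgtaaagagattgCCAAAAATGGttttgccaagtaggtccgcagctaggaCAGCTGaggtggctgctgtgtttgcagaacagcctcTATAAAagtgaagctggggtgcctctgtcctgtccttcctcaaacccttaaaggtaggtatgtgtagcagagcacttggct

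The lists of genes below were drawn up from known roles and with earlier results of these data in view. Their counts and medians therefore describe the tissues and are no independent test. Each count is to be read beside the shares of all genes, 24.8% higher and 33.5% lower in liver. The direction of a list with a median near 0 may depend on the scaling. Genes of plasma proteins, most of them secreted by the liver, all lay on 1 side. All 55 measured plasma protein genes were higher in liver (100%, against 24.8% of all genes), with a median log2 difference of 6.92. Igfbp1, a binding protein of insulin-like growth factors that is known to rise in fasting, had signals of 2089, 756, 2201 and 912 in liver and 5.39, 0.662, 1.65 and 2.05 in quadriceps. The tissues did not overlap and the difference was 6.20 ± 0.31 (SE). The smallest differences of the list were those of Ppbp, a platelet chemokine (1.10), Igfals, which carries insulin-like growth factor complexes (3.01), and coagulation factor F11 (3.26). Igf1, the growth factor itself, was 5.66 higher in liver, Apob, the scaffold of very-low-density lipoprotein, 7.55, and Ahsg, fetuin-A, 8.30.

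The genes of the contractile machine all lay on the other side. All 39 measured sarcomere genes were lower in liver (100%, against 33.5% of all genes), with a median of -7.34. The differences ran from -9.06 for Myh4 to -2.59 for Csrp3, a Z-disc LIM protein, with Tpm2, a tropomyosin (-4.26), and Capn3, the muscle calpain (-4.39), next to it. Of 20 genes of calcium release and uptake, 19 were lower, and the exception Mtm1, a lipid phosphatase of the triad, differed by -0.31 ± 0.13 (SE, limma adjusted p = 0.0582). Trdn, which anchors the release channel, was -8.40, and Casq1, the calcium store of the fast fibre, -7.09. Of 17 genes of the neuromuscular junction and surface membrane, 13 were lower and 1, the syntrophin Sntb1 (0.58), higher in liver. Sgca and Sgcb, dystrophin-bound sarcoglycans (-6.23 and -4.13), the membrane protein Popdc3 (-4.46), Cav3, the muscle caveolin (-3.65), and the chloride channel Clcn1 (-3.20) were among the lower genes, while 2 acetylcholine receptor subunits, Chrnd (0.10) and the fetal Chrng (-0.52), did not pass and were dim in both tissues.

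The lists of transcription factors had medians nearer to 0 than those of the secreted and contractile proteins. Of 20 hepatic factors, 19 were higher in liver, with a median of 3.21. Hnf4a, a nuclear receptor central to hepatocyte identity, had signals of 2199, 2657, 2287 and 2747 in liver and 6.23, 7.87, 15.55 and 27.4 in quadriceps. The difference was 6.41 ± 0.18 (SE), with no overlap. Nr1i3, the constitutive androstane receptor (5.68), Creb3l3, a membrane-bound factor of the fasting liver (5.54), Nr1h4, the bile acid receptor (4.71), Nr5a2 (4.31) and Foxa3 (4.26) came next. Cebpb, a factor made in many cell types, did not pass (0.25 ± 0.14, SE, limma adjusted p = 0.166). Of 23 myogenic factors, 17 were lower in liver and 6 did not pass, with a median of -1.94, and 8 of the 23 were dim in both tissues. Mef2c, which binds the MEF2 box, had signals of 37.1, 31.8, 44.9 and 33.0 in liver and 3295, 3239, 3009.6 and 2999.6 in quadriceps. Its difference of -5.91 ± 0.09 (SE) was followed by those of Myf6, the myogenic factor of mature fibres (-5.33), Tbx15 (-5.19) and the methyltransferase Smyd1 (-4.13). Pax7, which marks satellite cells, was dim in both tissues and did not pass (-0.12).

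**Figure D2:**
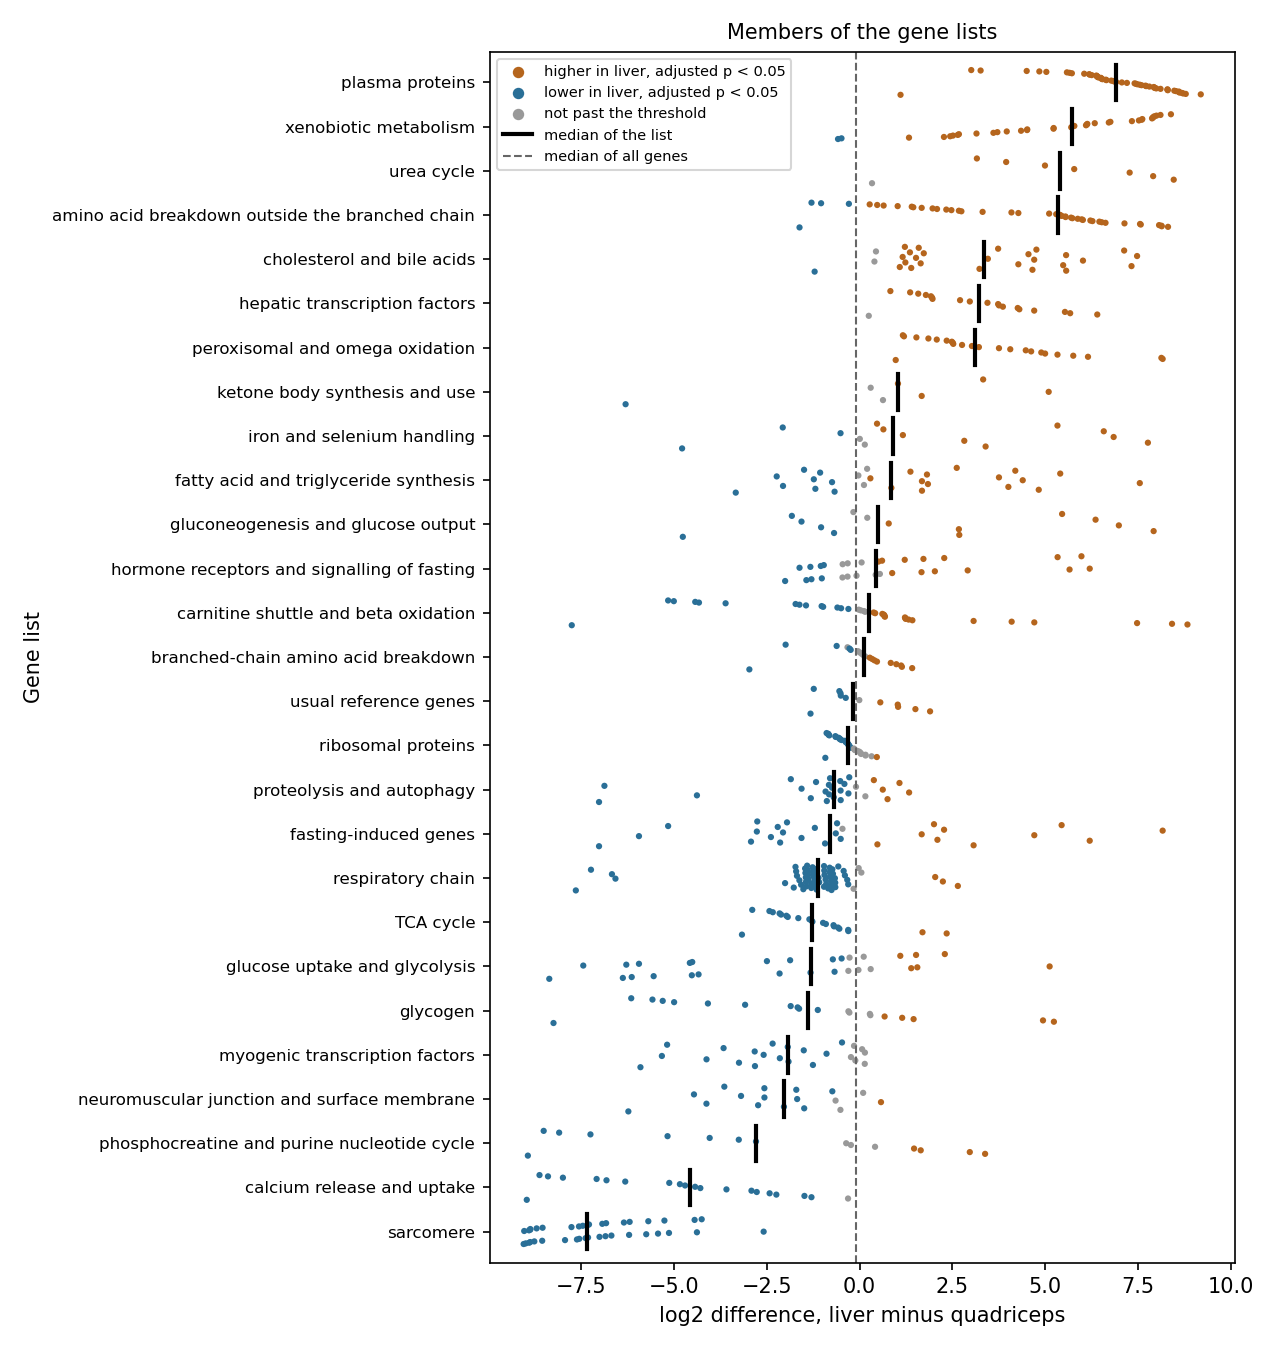
Log2 difference, liver minus quadriceps, of every measured member (points) of the 27 gene lists, in order of their medians (black bars); brown points are higher and blue points lower in liver past the threshold, grey points are not past it, and the dashed line is the median of all genes, -0.10. Plasma proteins lie wholly on the liver side (median 6.92) and the sarcomere wholly on the quadriceps side (median -7.34), while the lists of glucose output, glycolysis and ketone bodies spread to both sides.

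The genes of glucose output were split between the tissues. Of 14 measured, 7 were higher and 5 lower in liver and 2 did not pass the threshold, with a median log2 difference of 0.50. G6pc, the catalytic subunit of glucose-6-phosphatase, which frees glucose for export, had signals of 2174, 1186, 2660.5 and 913 in liver and 7.85, 1.39, 0.887 and 4.51 in quadriceps. The livers differed among themselves, yet every one lay above every quadriceps, and the difference was 6.36 ± 0.29 (SE, limma adjusted p = 1.28e-09). Pck1, the cytosolic phosphoenolpyruvate carboxykinase, had signals of 5277, 4388, 4614 and 4406 in liver and 84.0, 96.2, 117 and 69.4 in quadriceps, a difference of 5.46 ± 0.12 (SE) without overlap. Pck2, its mitochondrial counterpart, averaged 27.4 ± 14.7 in liver and 32.8 ± 15.5 in quadriceps (SD, n = 4 each) and did not pass (limma adjusted p = 0.65). Pcx, pyruvate carboxylase (2.69), Slc2a2, the transporter GLUT2 (6.99), and Slc37a4, which carries glucose 6-phosphate to the phosphatase (0.79), were also higher in liver. G6pc3, the phosphatase subunit found in many tissues, was lower in liver (-1.83), as were Mdh1 (-0.69) and Got1 (-1.04), the cytosolic enzymes that shuttle malate and aspartate. Gpd1, which joins glycerol to glycolysis, did not pass (0.21), and another probe set of it pointed the other way.

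Fructose 1,6-bisphosphatase showed how a step shared by both tissues was divided between genes. Fbp1, the liver form, had signals of 8524, 9233, 9534 and 8597 in liver and 29.7, 14.6, 29.9 and 12.9 in quadriceps. Fbp2, the muscle form, had 15.5, 21.0, 5.70 and 29.9 in liver and 853, 867, 1351 and 591 in quadriceps. Their differences were 7.93 ± 0.15 and -4.77 ± 0.26 (SE), opposite in sign and neither with overlap. Of 26 such isozyme pairs listed, both members were measured in 19, and in 14 of these the liver form was higher and the muscle form lower in liver past the threshold. Over the 19 pairs, 16 liver forms were higher, 2 lower and 1 not past the threshold, and 17 muscle forms were lower, 1 higher and 1 not past it, against 24.8% of genes higher and 33.5% lower overall. Of the 2 lower liver forms, 1 is the calcium pump Atp2a2, for which 2 of 3 other probe sets point the other way past the threshold. With the sign of Atp2a2 alone turned, 17 liver forms were higher, 1 lower and 15 pairs opposite. The pairs were listed as liver and muscle forms from earlier knowledge, so the direction was fixed by the choice of members.

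In glycolysis, muscle forms were far lower in liver while liver forms were moderately higher there. Of 29 genes of glucose uptake and glycolysis, 6 were higher (20.7%) and 18 lower (62.1%) in liver, against 24.8% and 33.5% of all genes. The other 5 did not pass the threshold, and the median log2 difference was -1.32. Slc2a4, the insulin-responsive transporter GLUT4, had signals of 4.86, 7.14, 17.6 and 45.8 in liver and 2494, 2339, 3070.3 and 2641 in quadriceps, a difference of -6.38 ± 0.27 (SE) without overlap. Its counterpart Slc2a2 was 6.99, whereas Slc2a1, the transporter GLUT1 of many cell types, was called even (-0.03 ± 0.11, SE). Phosphofructokinase gave 1.39 for Pfkl of liver and -6.29 for Pfkm of muscle. Phosphoglycerate mutase gave 2.30 for Pgam1 and -8.37 for Pgam2, which had the largest difference of the list. Pyruvate kinase gave 1.52 for Pklr and -6.14 for Pkm. Hexokinase 2 (Hk2, -5.55), aldolase A (Aldoa, -4.34) and the muscle enolase Eno3 (-7.45), whose liver counterparts were not analysed here, were lower in liver, as was Pgk1 (-1.32), the phosphoglycerate kinase of all tissues. Pdha1, a subunit of pyruvate dehydrogenase, was -2.16. Pdk4, the kinase that shuts off pyruvate dehydrogenase and so spares glucose, had signals of 234, 104, 107 and 81.5 in liver and 7979, 8109, 8695 and 9233 in quadriceps. Liver array 1 was the highest of the livers but far below every quadriceps, and the difference was -5.95 ± 0.23 (SE, limma adjusted p = 2.49e-10). Pdk3, of the same family, was dim in both tissues (0.11).

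**Figure D3:**
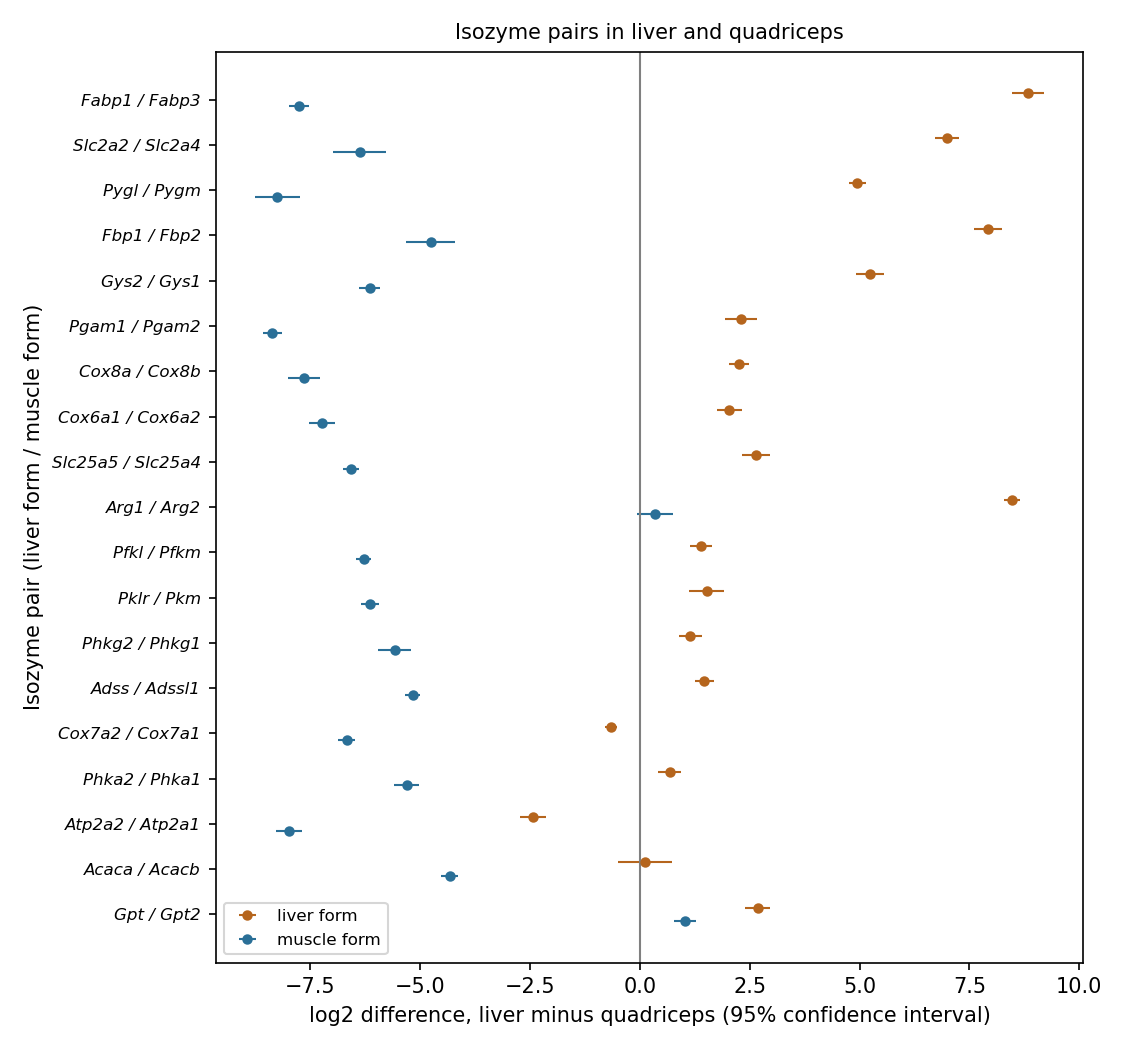
Log2 difference, liver minus quadriceps, with its 95% confidence interval for the liver form (brown) and the muscle form (blue) of the 19 isozyme pairs with both members measured; n = 4 arrays of each tissue. In 14 pairs the 2 forms stand on opposite sides of 0 past the threshold, from Fabp1 and Fabp3 (8.84 and -7.76) to Phka2 and Phka1 (0.67 and -5.31).

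Glycogen enzymes followed the pattern of the isozymes. Of 20 measured, 5 were higher (25.0%) and 11 lower (55.0%) in liver, against 24.8% and 33.5% of all genes. The other 4 did not pass the threshold, and the median log2 difference was -1.38. Glycogen synthase gave 5.24 ± 0.14 for Gys2 of liver and -6.16 ± 0.11 for Gys1 of muscle (SE). Glycogen phosphorylase gave 4.94 ± 0.09 for Pygl and -8.25 ± 0.23 for Pygm. Pygm averaged 11.9 ± 11.4 in liver and 7954 ± 271 in quadriceps (SD, n = 4 each), so that it was dim in liver. The subunits of phosphorylase kinase, which switches phosphorylase on, were 0.67 for Phka2 and -5.31 for Phka1, and 1.15 for Phkg2 and -5.58 for Phkg1. Gyg, glycogenin, on which a glycogen particle starts, was -5.00. The branching enzyme Gbe1 (0.29), Pgm2 (0.28) and the glycogen phosphatase Epm2a (-0.28), did not pass.

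Genes that bring fatty acids to oxidation were divided by tissue. Of 36 genes of the carnitine shuttle and beta oxidation, 18 were higher and 14 lower in liver and 4 did not pass the threshold, with a median log2 difference of 0.26; 5 were called even, 17.9% of the 28 bright enough in both tissues for that call, against 20.7% of the 4345 such genes overall. Cd36, a fatty acid transporter of the plasma membrane, had signals of 1845, 1359.9, 1727 and 1407 in liver and 1192, 1712, 1612 and 1972 in quadriceps. The groups overlapped and the difference was -0.02 ± 0.15 (SE, 95% confidence interval -0.34 to 0.30). Acadvl, the very-long-chain acyl-CoA dehydrogenase (0.03 ± 0.07), and Etfa, which hands its electrons on (0.11 ± 0.09), were also even. Cpt1a, the carnitine palmitoyltransferase of liver that admits fatty acids to mitochondria, had signals of 3195, 3726, 3965 and 3632 in liver and 109.8, 112, 149 and 125 in quadriceps, a difference of 4.71 ± 0.10 (SE) without overlap. The muscle form of this transferase was not analysed here, so Cpt1a alone does not describe the entry step in quadriceps. The fatty acid binding proteins stood at 8.84 for Fabp1 of liver, -7.76 for Fabp3 of muscle and -5.01 for Fabp4 of fat cells. Adipocyte markers, of which Fabp4 is 1, summed to 6760 to 8370 in liver and 14200 to 15600 in quadriceps; Car3, a carbonic anhydrase with a difference of -0.20 (limma adjusted p = 0.0513), made up 96.5% of the liver sum and 57.9% of the quadriceps sum, and without it the sums were 239 to 300 in liver and 5270 to 6920 in quadriceps. The part of fat cells in these differences was not tested. Another probe set of Car3 was higher in liver past the threshold. The liver's acyl-CoA synthetases of the transporter family, Slc27a2 (8.42) and Slc27a5 (7.48, which also activates bile acids), were higher. Acacb, whose malonyl-CoA restrains mitochondrial entry (-4.33), and Ucp3, the muscle uncoupling protein (-5.16), were lower in liver, and Acaca, which makes malonyl-CoA for synthesis, was dim in both and did not pass (0.12).

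Oxidation outside mitochondria lay on the liver side. All 24 measured genes of peroxisomal and omega oxidation were higher in liver, with a median of 3.12. Cyp4a14, an omega hydroxylase of fatty acids, had signals of 7203, 7104, 7059 and 5943 in liver and 7.45, 10.1, 12.8 and 1.95 in quadriceps, a difference of 8.17 ± 0.13 (SE) without overlap. Acaa1b, a peroxisomal thiolase (8.13), Vnn1, a pantetheinase (6.16), Acox2, which shortens bile acid precursors (5.76), and the thioesterases Acot12 (5.33) and Acot3 (5.00) followed. The smallest difference, that of Cyp4a12a (0.97 ± 0.38), was of a gene dim in both tissues; it was 0.50 without liver array 3, and its call was lost without liver array 1 or any single quadriceps array.

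Ketone bodies are made in liver, which lacks the enzyme to use them. Oxct1, the transferase that activates acetoacetate for use, had signals of 35.1, 29.6, 26.9 and 41.4 in liver and 3821, 3971, 3939 and 3714 in quadriceps. The livers lay near 28.4 and the difference was -6.31 ± 0.09 (SE, limma adjusted p = 6.70e-14). Bdh1, which interconverts acetoacetate and beta-hydroxybutyrate, had signals of 2950.0, 3277, 3503 and 2820.5 in liver and 203, 283, 325 and 409.6 in quadriceps, a difference of 3.33 ± 0.16 (SE) in the other direction. Acat1, the thiolase that both paths use, was 1.03 and the monocarboxylate transporter Slc16a7 5.10, whereas the transporter Slc16a1, which carries lactate and ketone bodies in many tissues, did not pass (0.30 ± 0.22, SE, limma adjusted p = 0.278). Of 10 genes listed for ketone bodies 7 were measured, of which 4 were higher and 1 lower in liver. No enzyme that serves only ketone body synthesis was among the 7. Fgf21, a hormone that the fasting liver secretes (1.67), was among the 4 higher genes. Aacs, which uses acetoacetate for lipid synthesis (0.63), did not pass.

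**Figure D4:**
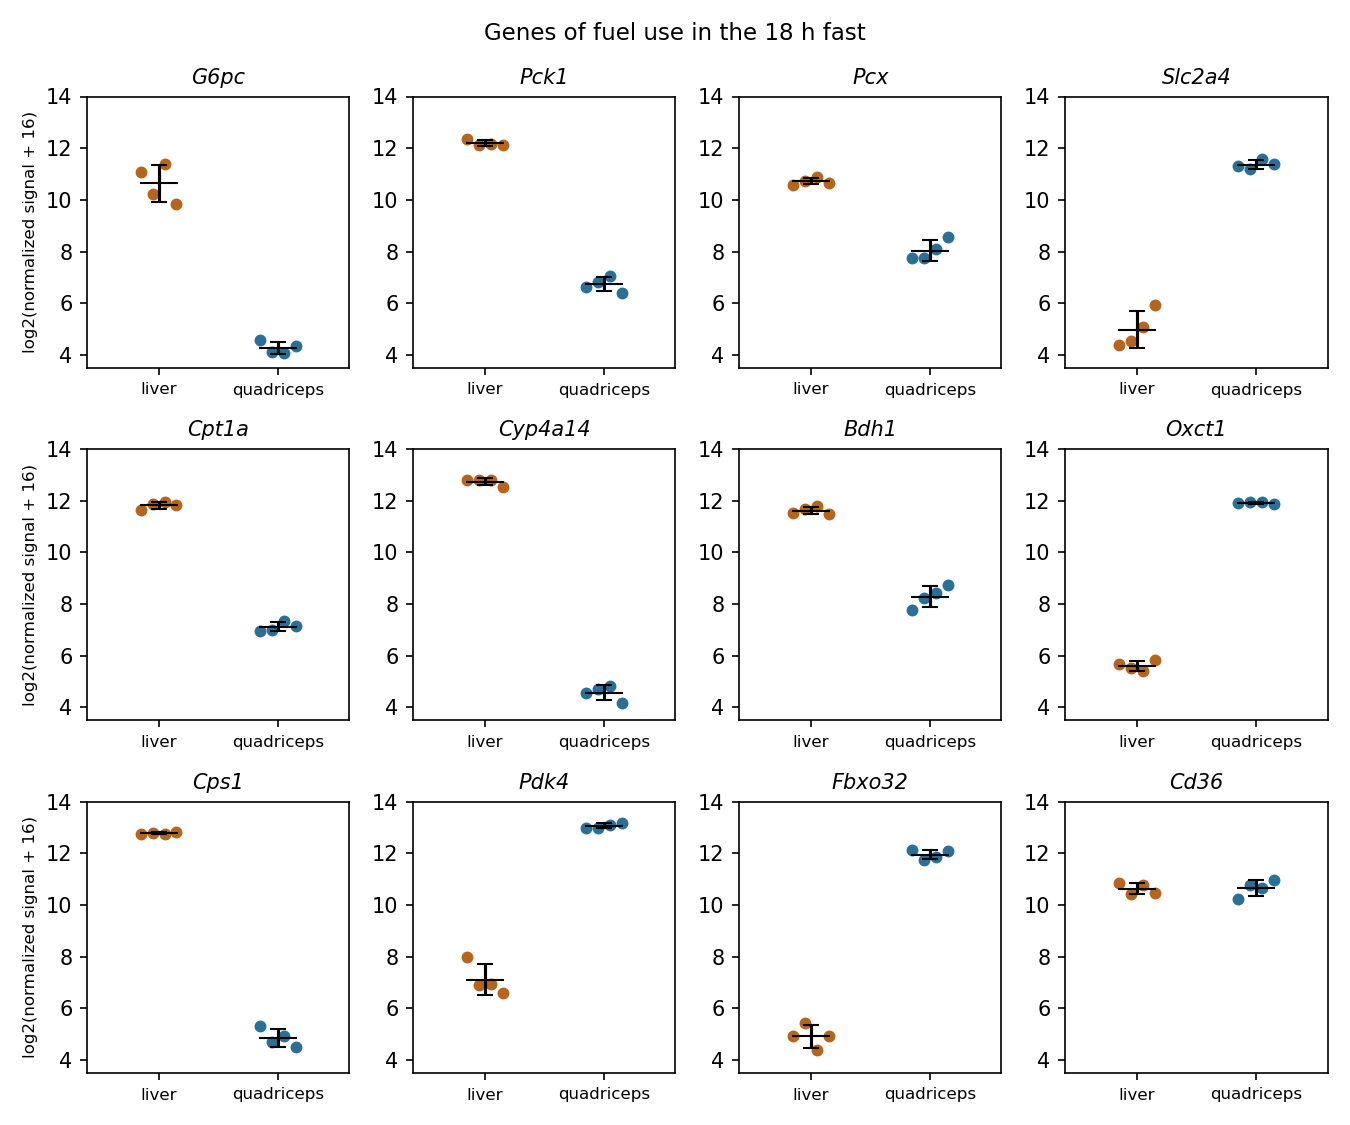
Log2(normalized signal + 16) of 12 genes of glucose, fat, ketone body, nitrogen and protein use on each of the 4 liver arrays (brown, left) and 4 quadriceps arrays (blue, right); black lines give the mean and SD. The tissues do not overlap for 11 of the genes, from Cyp4a14 (difference 8.17) to Fbxo32 (-7.02), and overlap for Cd36 (-0.02).

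Genes that dispose of amino acid nitrogen lay on the liver side. Of 8 urea cycle genes, 7 were higher in liver, with a median of 5.39. Cps1, which fixes ammonia as carbamoyl phosphate, had signals of 6807, 7059, 6807 and 7203 in liver and 23.9, 9.65, 14.3 and 6.71 in quadriceps, a difference of 7.91 ± 0.14 (SE) without overlap. Otc, the next enzyme (7.28), Asl, argininosuccinate lyase (5.00), Arg1, arginase (8.47), the carriers Slc25a13 for aspartate (5.78) and Slc25a15 for ornithine (3.95), and Nags, which makes the activator of Cps1 (3.16), were the others. Arg2, the mitochondrial arginase of other tissues, was dim in both and did not pass (0.33). Of 44 genes that break down amino acids outside the branched chain, 40 were higher and 4 lower in liver, with a median of 5.35. Bhmt of homocysteine remethylation (8.31), Mat1a, which makes S-adenosylmethionine in liver (8.14), Tdo2 of tryptophan (8.14), Hpd and Hgd of tyrosine (8.07 and 7.56), Gnmt of glycine (7.58) and the aminotransferase Tat (7.14) led them. Both alanine aminotransferases, which link muscle alanine to liver pyruvate, were higher in liver, Gpt by 2.68 ± 0.13 and Gpt2, listed as the muscle form, by 1.03 ± 0.12 (SE). Of the aspartate aminotransferases, Got1 was lower (-1.04) and Got2 lower but called even (-0.29 ± 0.08, of the other sign under cyclic loess scaling), and Glul, glutamine synthetase, was higher in liver by 0.47 ± 0.11.

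Branched-chain amino acids, which muscle transaminates first, were handled by genes on both sides. Of 20 genes, 9 were higher and 5 lower in liver and 6 did not pass the threshold, with a median log2 difference of 0.13; 8 were called even, 47.1% of the 17 bright enough in both tissues, against 20.7% of such genes overall. Bcat2, the mitochondrial aminotransferase that takes the first step, had signals of 25.5, 47.9, 24.3 and 29.1 in liver and 141, 185, 173 and 188 in quadriceps. The difference was -1.99 ± 0.17 (SE), without overlap. Bckdk, the kinase that inhibits the next enzyme, had 57.6, 74.4, 119.9 and 106 in liver and 750.4, 773, 841 and 790.3 in quadriceps, a difference of -2.97 ± 0.17 (SE), also without overlap. Bckdhb, a subunit of that enzyme, the branched-chain ketoacid dehydrogenase, was higher in liver (1.12), as were Mccc2 of leucine (1.42), Hsd17b10 of isoleucine (1.14) and Aldh6a1 of valine (0.99). Pcca, Mcee and Hibch, which act further down, differed by 0.01 ± 0.07, -0.04 ± 0.09 and 0.06 ± 0.09 (SE) and were even.

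The final common path of oxidation was lower in liver. Of 22 genes of the TCA cycle and pyruvate dehydrogenase, 20 were lower (90.9%) and 2 higher (9.09%) in liver, with a median of -1.28. Among all genes 33.5% were lower and 24.8% higher. Cs, citrate synthase, had signals of 572, 538, 538 and 520.2 in liver and 5014, 4976, 5218 and 4831 in quadriceps, a difference of -3.17 ± 0.06 (SE) without overlap. Idh3a and Idh3g of isocitrate dehydrogenase (-2.89 and -2.34) and Ogdh of the oxoglutarate dehydrogenase complex (-2.43) were next. Idh3b (-0.31) and Fh1, fumarase (-0.30), passed with small differences that turned positive under cyclic loess scaling, and another probe set of Idh3b pointed the other way. Cytosolic aconitase, Aco1, which is not a mitochondrial enzyme, was higher in liver (2.35), and the other higher gene, chosen after its values were seen, was Suclg2 (1.70), the GTP-forming subunit of mitochondrial succinyl-CoA ligase. Of 62 respiratory chain genes, 56 were lower (90.3%) and 3 higher (4.84%) in liver, with a median of -1.13. The muscle forms Cox8b (-7.65), Cox6a2 (-7.24), Cox7a1 (-6.68) and the ADP/ATP carrier Slc25a4 (-6.58) stood apart from the rest of the list. Cox8a (2.24), Cox6a1 (2.04) and the carrier Slc25a5 (2.65), their counterparts, were the 3 that were higher, while Cox7a2 was lower as well (-0.66). Ndufa4 (-0.03 ± 0.07) and Uqcrb (-0.16 ± 0.07) were even.

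Genes of the phosphocreatine buffer of contracting muscle were lower in liver, and a gene of creatine synthesis was higher there. Of 15 genes of phosphocreatine, adenylate and the purine nucleotide cycle, 4 were higher (26.7%) and 8 lower (53.3%) in liver. The shares of all genes were 24.8% and 33.5%. The other 3 of the list did not pass the threshold, and its median log2 difference was -2.79. Ckm, muscle creatine kinase, averaged 21.3 ± 8.65 in liver and 10046 ± 279 in quadriceps (SD, n = 4 each), a difference of -8.10 ± 0.13 (SE). Ckmt2, the mitochondrial kinase of muscle (-8.52), Ak1, adenylate kinase (-7.26), Slc6a8, the creatine transporter (-4.04), and Ampd3 of AMP deamination (-3.26) were lower as well. Gamt, which completes creatine synthesis, was higher in liver (2.97), and Gatm, which begins it, did not pass (0.42). Ampd2, the AMP deaminase of liver, was 3.38, and adenylosuccinate synthase gave 1.47 for Adss and -5.18 for the muscle form Adssl1. Calcium pumping, the other large user of ATP, gave -8.00 for Atp2a1 of fast fibres and -2.43 for Atp2a2, but 2 other probe sets of Atp2a2 pointed the other way, so its direction is uncertain.

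Genes of lipid synthesis and export lay on both sides, and sterol and bile acid genes were nearly all higher in liver. Of 27 genes of fatty acid and triglyceride synthesis, 15 were higher and 9 lower in liver and 3 did not pass the threshold, with a median log2 difference of 0.86, against 24.8% of all genes higher and 33.5% lower. Apob (7.55) and Mttp (4.83), which build and load very-low-density lipoprotein, the desaturases Fads2 (5.41) and Fads1 (4.20) and the elongase Elovl5 (4.40) were higher in liver. Srebf1, a regulator of lipogenesis (0.20), did not pass, Me1, malic enzyme, was even (-0.03 ± 0.12), and the lipid droplet protein Cidec was lower (-1.19). Of 28 genes of cholesterol and bile acids, 25 were higher and 1 lower in liver, with a median of 3.34. Slc27a5, which activates bile acids (7.48), the bile salt transporters Slc10a1 (7.13), Slco1b2 (7.33) and Abcb11 (5.57) and the enzymes Cyp8b1 (6.02) and Baat, which conjugates bile acids (5.57), led the list, while Mvk (0.44) and Mvd (0.40) of sterol synthesis did not pass. Of 37 genes of xenobiotic metabolism, 35 were higher in liver, with a median of 5.73, headed by the cytochromes P450 Cyp2d26 (8.39) and Cyp2d10 (8.11). The glutathione transferases Gstp1 (-0.49) and Gstm2 (-0.58) were the 2 that were lower.

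Iron and selenium handling also lay mainly on the liver side. Of 14 genes, 9 were higher (64.3%) and 3 lower (21.4%) in liver, against 24.8% and 33.5% of all genes. The other 2 did not pass the threshold, and the median log2 difference was 0.90. Hamp, the iron hormone hepcidin (6.85), its copy Hamp2 (7.77), the iron sensor Tfr2 (6.58), Cp, ceruloplasmin (5.33), and Gpx1, a glutathione peroxidase (3.40), were higher, and Selenow (-2.07), abundant in muscle, and Gpx3 (-4.79), a secreted peroxidase, lower in liver. Hamp and Hamp2 are near-identical, so that 1 may take signal of the other. Fth1, the ferritin heavy chain, had signals of 7725, 7203, 7538 and 7284 in liver and 7236, 7725, 7352 and 7320.3 in quadriceps and was even (0.01 ± 0.06, SE).

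Genes that are known to rise in fasting were divided by tissue as well. Of 28 on that list, 10 were higher (35.7%) and 17 lower (60.7%) in liver, against 24.8% and 33.5% of all genes. The other 1 did not pass the threshold, and the median log2 difference was -0.79. Fbxo32, atrogin-1, a ubiquitin ligase of muscle wasting, had signals of 14.8, 27.6, 4.66 and 14.3 in liver and 4415, 3391, 3688 and 4305 in quadriceps. All 4 livers lay under 28.4 and the difference was -7.02 ± 0.19 (SE, limma adjusted p = 8.67e-12). It joined Pdk4 (-5.95) and Ucp3 (-5.16) on the quadriceps side, while Cyp4a14 (8.17), Igfbp1 (6.20), Nnmt, which methylates nicotinamide (5.45), and Cpt1a (4.71) stood on the liver side. Klf15, the factor of the wider study, had signals of 909, 1180.1, 1175 and 869.8 in liver and 781, 543, 768 and 868 in quadriceps, a difference of 0.48 ± 0.15 (SE, limma adjusted p = 0.0133). Ppargc1a, a coactivator of mitochondrial and gluconeogenic genes, had signals of 80.3, 74.1, 79.1 and 75.8 in liver and 188, 190.1, 1088 and 109.5 in quadriceps. Quadriceps array 3 stood far above the other 3, and the difference was -1.57 ± 0.51 (SE) with it and -0.90 without it. Of 29 hormone receptors and signalling genes, 13 were higher and 8 lower in liver and 8 did not pass the threshold, with a median log2 difference of 0.43, against 24.8% of all genes higher and 33.5% lower. Gcgr, the glucagon receptor, averaged 794 ± 125 in liver and 3.88 ± 1.38 in quadriceps (SD, n = 4 each), a difference of 5.34 ± 0.14 (SE). Klb, the coreceptor for Fgf21 (2.91), the growth factor binding protein Igfbp2 (5.98) and Trib1 (2.28) were higher in liver, Akt1 of insulin signalling was even (0.05 ± 0.12), and Foxo1 (-0.46, limma adjusted p = 0.0865) and Creb1 (-0.32), 2 factors of the fasting response, did not pass.

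Genes of protein breakdown had their largest differences among the muscle ubiquitin ligases and calpain. Of 27 genes of proteolysis and autophagy, 5 were higher (18.5%) and 20 lower (74.1%) in liver, against 24.8% and 33.5% of all genes. The other 2 did not pass the threshold, and the median log2 difference was -0.70. Fbxo32 (-7.02), Trim54, a muscle RING-finger protein (-6.88), and the muscle calpain Capn3 (-4.39) had the largest differences, followed by Map1lc3a (-1.85) and Ulk1 (-1.56) of autophagy. Atg5, also of autophagy, was higher in liver (1.33), and Atg12 (0.16 ± 0.08) and the proteasome subunit Psma1 (-0.10 ± 0.07) were even.

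Among the 898 even genes, 241 had a mean at or above the 90th percentile, a signal of 468. The 10 of these with the smallest differences included Rps3 and Rpl41, ribosomal proteins, Cct8 of the chaperonin that folds actin and tubulin, the RNA-binding protein Hnrnpab, Pcca, Fth1, Fam8a1, Ubxn4 and Ist1, and the mitochondrially encoded ND5. Rps3 had signals of 2703, 2471, 2361 and 2339 in liver and 2389.6, 2419, 2567 and 2567 in quadriceps, which overlapped, with a difference of -0.01 ± 0.07 (SE). Of 33 ribosomal protein genes, 16 were even (53.3% of the 30 bright enough in both tissues, against 20.7% of such genes overall), 21 were lower and 1 higher in liver past the threshold, with a median of -0.31; genes can be both called and even. Of 12 usual reference genes, 5 were higher and 6 lower in liver, among them B2m (1.90), Actb (1.504), Hprt (1.03), Polr2a (-1.24) and Pgk1 (-1.32), and Tbp, the TATA-binding protein, was even (-0.01 ± 0.12, SE). Actb is the gene whose 3' to 5' control ratio differed between the tissues, and the part of that ratio in its difference was not tested.

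Markers of the other cells differed between the tissues for some cell types, while for other types most did not pass the threshold. Of 11 markers of Kupffer cells and macrophages, 10 were higher in liver and 1 did not pass, with sums of 5480 to 9170 in liver and 1230 to 1570 in quadriceps; Clec4f (5.02), Cd5l (5.57) and Vsig4 (5.31), which mark resident liver macrophages, led them. Of 8 adipocyte markers, 1 was higher and 6 lower in liver, with adiponectin (Adipoq, -5.19) and Fabp4 (-5.01) high in quadriceps. The higher 1 was Pparg, with median deposited signals of 80.75 in liver and 30.45 in quadriceps. Fibroblast and stellate cell markers (11 measured, 1 higher, 8 lower) summed to 2410 to 2870 in liver and 8710 to 12500 in quadriceps, and smooth muscle markers (7, all lower) to 124 to 267 in liver and 6910 to 7480 in quadriceps. Desmin, Des, which is on the sarcomere list too, made up 69.9% of that quadriceps sum, and without it the smooth muscle sums were 116 to 253 in liver and 1930 to 2370 in quadriceps. Schwann cell markers (4, all lower) summed to 118 to 129 in liver and 954 to 1010 in quadriceps and satellite cell markers (6 measured, 4 lower) to 78.5 to 107 in liver and 427 to 498 in quadriceps. Endothelial markers (12 measured, 4 higher, 7 lower) summed to 2080 to 2140 in liver and 1630 to 1930 in quadriceps. Clec4g made up 37.3% of that liver sum. Without it the order turned, with sums of 1280 to 1350 in liver and 1630 to 1920 in quadriceps. Neutrophil markers (9 measured, 4 higher, 5 dim in both) summed to 581 to 4320 in liver and 118 to 184 in quadriceps; Lcn2 made up 79.0% of the liver sum, and without it the sums were 197 to 604 in liver and 111 to 180 in quadriceps. The T, B and NK cell markers (10 measured, 2 higher, 1 lower, 9 dim in both) summed to 200 to 308 in liver and 251 to 480 in quadriceps. Ighm made up 67.3% of that quadriceps sum, and without it the sums were 143 to 220 in liver and 73.9 to 153 in quadriceps. Cholangiocyte markers (5 measured, 1 higher) were dim in both tissues, with sums of 45.1 to 74.0 in liver and 28.2 to 55.3 in quadriceps. Also dim in both were 3 of 4 erythroid markers, and the 4 summed to 187 to 424 in liver and 66.9 to 74.2 in quadriceps. Alas2 made up 92.1% of the erythroid sum in liver and 74.9% in quadriceps. Without it the sums overlapped, at 15.9 to 41.8 in liver and 6.51 to 30.4 in quadriceps. The part of these cells in the differences of single genes was not tested.

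Within a tissue the arrays were close. The spread was taken over genes with a mean in that tissue at or above the 60th percentile, a signal of 82.1. Their median SD of log2(signal + 16) was 0.131 in liver (5514 genes, 10 over 1) and 0.147 in quadriceps (5574 genes, 4 over 1). Saa2, an acute phase protein, had signals of 1897, 1324, 533 and 5211 on liver arrays 1 to 4. Lcn2, an iron-withholding protein of the acute phase, had 729, 1176, 384 and 3714, and Cxcl1, a neutrophil chemokine, 144, 127, 55.2 and 443. All 3 were highest on liver array 4 and lowest on liver array 3. The neutrophil protein S100a8 had 91.9, 173, 33.4 and 249.8 and its partner S100a9 115, 173, 24.2 and 145, both lowest on liver array 3. Hao2, a peroxisomal hydroxyacid oxidase, was low on liver array 4 alone (227, 255, 221 and 40.4). In quadriceps, Fos and Egr1, genes of the immediate response to stimuli, had 755, 311, 229.8 and 184 and 276, 121, 66.8 and 48.4 and were highest on quadriceps array 1. Erdr1 varied in both tissues, with 601, 602, 39.997 and 211 in liver and 674, 20.3, 472 and 423 in quadriceps. The share of an array's signal in its 100 brightest probe sets was 12.01 ± 0.447% in liver and 13.5 ± 1.63% in quadriceps (SD, n = 4 each), a difference of -1.45 percentage points that did not pass (exact permutation test, two-sided, p = 0.171, the smallest possible being 0.0286).

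**Figure D5:**
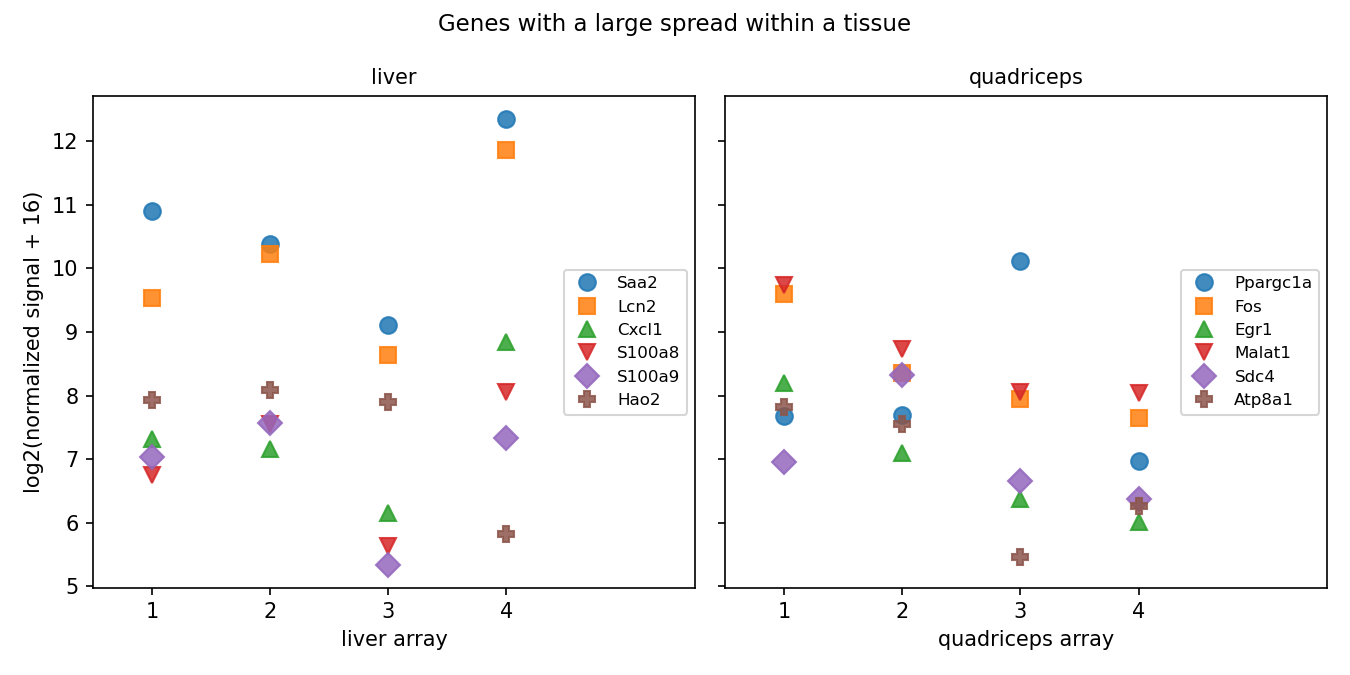
Log2(normalized signal + 16) on each array of 6 genes with a large spread within liver (left) and 6 within quadriceps (right); each symbol is 1 gene on 1 array. Saa2, Lcn2 and Cxcl1 are highest on liver array 4, Hao2 is lowest there, Ppargc1a is highest on quadriceps array 3, and Fos and Egr1 are highest on quadriceps array 1.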

How the data were processed

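Signal intensity, 1 linear value per probe set, was deposited by the authors, who made it in GCOS, Affymetrix's own software, per the submitters' processing notes; its probe summary, scaling and version were not given in the sources used here. The array records, deposited as well, served only as labels of session, station and module. Of 22690 probe sets, 64 were controls; of the other 22626, 20380 had 1 symbol, 691 several and 1555 none in the platform annotation, and only those with 1 symbol entered. The 8 wild-type arrays were quantile normalized together on log2(signal + 16), and the probe set of highest mean stood for its gene. RefSeq's table (GRCm38.p6) held 12369 of the 12393 symbols.

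Liver minus quadriceps was fitted by lmFit and moderated by eBayes with trend = TRUE (limma 3.58.1, R 4.3.3), with no filter and a Benjamini-Hochberg threshold of 0.05, and was tested on simulated data. The number of arrays limits the precision. Members and lists (27 lists, 680 of 791 members measured; 26 isozyme pairs; 13 marker lists) were chosen with earlier results of these data known. Genes named are the 15 largest differences each way, all isozyme pairs, the 6 largest and 3 smallest differences of each list (all members of lists of up to 17), the 8 with the largest SD in each tissue, the 10 most even bright genes and the markers. Alternatives were pseudocounts of 1 and 64, other scalings, filters at the 40th and 60th percentile, other probe set rules, other variance models, the replicate block and each array left out. The marker sums without 1 gene, the counts with Atp2a2 turned and the even share among bright genes were chosen after seeing the data.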

Additional observations from a re-analysis of the deposited data

Results flagged for a closer look

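Of 370 sets of 4 arrays examined (the genes named above, in each tissue in which they were not dim), 21 held an array that lay apart from the other 3 by Dixon's test, where chance gives about 1 in 20. The values are the gap to the nearest array divided by the range.

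Liver array 4 lay apart for Hao2 (0.916, range 2.26 on the log2 scale), Cyp4a14 (0.895) and Tbp (0.868), in each case as the lowest. Liver array 3 was the highest for Fabp4 (0.915) and the lowest for Gstp1 (0.911), Phkg2 (0.864) and Hnrnpab (0.841). Liver array 2 was the lowest for Gbe1 (0.903), Gpx3 (0.891) and Nr1i3 (0.880), and liver array 1 for Creb3l3 (0.861). Apart from Hao2, the ranges of these genes in liver were at most 0.365.

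Quadriceps array 4 was the lowest for Pgam1 (0.886, range 0.852) and Aco1 (0.856). Quadriceps array 3 was the highest for Slc25a5 (0.839, range 0.771) and Ucp3 (0.856) and the lowest for Myf6 (0.895). Quadriceps array 2 was the highest for Cav3 (0.907) and the lowest for Erdr1 (0.846, range 4.25), and quadriceps array 1 was the lowest for Ckmt2 (0.910). Tnnt3 and Tnni2 gave a ratio of 1 each, since quantile normalization gave both the same value on 3 of the 4 quadriceps arrays, with ranges of 0.0707 and 0.0754; their deposited signals differed on every quadriceps array.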

How the results depend on the processing

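Of the 5 counts over all genes, most stayed within 1.5 times the reported value, with 5 exceptions. Testing every probe set as its own feature gave 4941 higher in liver (3074 by genes) and 2714 higher by at least 2-fold (1759), over more features. A filter at the 60th percentile left 2759 lower (4153 without it), over fewer genes. A pseudocount of 64 left 1366 lower by at least 2-fold (2053 with 16), since it compresses differences, and no scaling left 436 even (898); for this last count the cause was not tested. Leaving out each array in turn gave 2918 to 3017 higher, 3982 to 4049 lower, 1741 to 1779 higher and 2022 to 2082 lower by at least 2-fold, and 796 to 837 even. The difference in signal share lay between -2.07 and -0.83 percentage points when each array was left out and passed in none of the alternatives run. Over the 19 settings, counts of called list members moved by over 1.5 times in 20 comparisons and stayed in 1006. List medians moved by at least their SD between arrays in 72 comparisons and stayed within it in 441. Cyclic loess turned the sign of Fh1 (0.080), Got2 (0.058) and Idh3b (0.13), and the mean of all probe sets turned Idh3b (1.19) and Tubb5 (0.24); the cause was not tested. Of 307 called genes under the naming rule, 20 lost the call or turned in at least 1 of 19 settings, and of 81 uncalled ones 37 gained a call. Those named in the text that lost it or turned are Cyp4a12a, Egr1, Fh1, Glul, Got2, Gstm2, Gstp1, Idh3b, Ighm, Mdh1 and Tubb5.

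Whether equal replicate numbers mark samples of 1 animal is not known. Deviations of liver and quadriceps arrays with the same number correlated at 0.06, -0.08, -0.02 and 0.01. Such values cannot decide it, since different tissues of 1 animal need not vary together. With the replicate number as a block (replicate block), the counts were 3026 higher, 4090 lower, 1759 and 2053 at 2-fold or more, and 863 even. The fluidics module equals the replicate number, so its block is the same fit. Scan day and station as blocks were not run, since each session held 1 tissue and all arrays shared a station. Quantile normalization gives each rank the same value on every array. A probe set that keeps its rank then shows no spread, so SDs of the brightest probe sets can be too small.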
